A study of Homo sapiens with 36 samples.

Results

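The genes described here encode the subunits, activators and maturation factor of the proteasome. They were chosen as a list of 42 gene symbols, taking for each symbol the probe set of the array with the highest mean over all arrays. Of the 42 listed genes, 37 were measured, out of 11092 genes tested. The annotation tied every probe set of PSMA6 and PSME2 to several genes, and PSMC5, PSMD7 and PSMD13 were not measured here. The cells were HK-2, an immortalized line from the epithelium of the human renal proximal tubule, grown as 1 cell type in culture without other cells of the kidney. Cultures near confluency had received CdCl, Di or Kbr, as the compounds are abbreviated in the labels with no full name, or vehicle alone, and the series counts them in a class it calls Tox 2. In the CdCl and Di set, 18 arrays covered CdCl at 12 h, Di at 12 h and their shared vehicle at 12 h, then CdCl, Di and vehicle at 48 h. In the Kbr set, another 18 arrays covered vehicle, low Kbr and high Kbr at 24 h and again at 48 h, with doses given only as low and high. The 12 groups held 3 biological replicates each by their labels, on single-colour arrays, and 3 arrays a group set the precision of each mean. Values are log2 expression as the authors normalized it, and a difference is the treated mean minus the vehicle mean of the same set and time, given with the SE of a model over all 36 arrays (limma). A gene rose or fell where the p adjusted over all genes was under 0.05.

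The proteasome is the large protease that degrades proteins tagged with ubiquitin. Its 20S core is a barrel of alpha and beta rings, and PSMB5, PSMB6 and PSMB7 carry its cutting sites. The 19S regulatory particle binds ubiquitin chains, removes them and threads substrates into the core with a ring of ATPases. Interferon can replace the 3 cutting subunits with PSMB8, PSMB9 and PSMB10, which yields the immunoproteasome and favours peptides for antigen presentation. When proteasome activity falls, the transcription factor NRF1 (gene NFE2L1) can raise the subunit genes together, by way of antioxidant response elements in their promoters.

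Of 16 markers of the line's epithelium, 8 were measured, among them the keratins KRT8, KRT18 and KRT19, EPCAM and PAX8. The other 8 lay below the filter on low values, among them PAX2 and the markers LRP2, CUBN and AQP1 of the differentiated proximal tubule. Of 14 markers of other cell types, COL1A1 (mean 7.41) and SLC12A1 (mean 3.85) passed that filter, and leukocyte and endothelial markers such as PTPRC, PECAM1 and VWF did not. COL1A1 fell with Kbr, by 1.34 at the low and 1.90 at the high dose at 24 h and by 1.89 and 2.58 at 48 h. Of the 8 epithelial markers 1 rose and 6 fell with each dose of Kbr at 48 h, 1 rose and 2 fell with CdCl at 48 h, and 1 rose and 5 fell with Di at 48 h. Of all genes 27.3% rose and 34.5% fell with high Kbr at 48 h, and 23.8% and 23.2% with low Kbr. For CdCl and Di at 48 h the shares were 20.7% and 22.0%, and 19.1% and 23.9%. The falls with CdCl, 25% of the markers, were thus near the share of all genes. The cadherin CDH6 fell by 2.56 with high Kbr at 48 h and stood at -2.15 with CdCl and -3.54 with Di at 48 h, which also passed. As a measure of RNA quality, the control probe set at the 3' end of beta-actin exceeded that at the 5' end by 1.40 to 1.84 on average among groups from the CdCl and Di experiment, and by 0.87 to 1.06 among Kbr groups. The part of these shifts in the proteasome results was not tested. In such bulk samples a change in the make-up of the culture and a change of RNA per cell cannot be told apart.

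At 48 h Kbr raised 30 of the 37 measured proteasome genes at either dose, and at 24 h it raised 17 at the low and 26 at the high dose. Low Kbr at 24 h raised 17 members (45.9%) and lowered 1 (2.7%), against 6.93% and 8.28% of all genes tested, and the median member stood at 0.27, against -0.01 for all genes. High Kbr at 24 h raised 26 members and lowered 3, against 15.4% and 25.3% of all genes, with medians of 0.36 and -0.06. At 48 h, low Kbr raised 30 and lowered 3, against 23.8% and 23.2% of all genes, with medians of 0.46 and 0.00. High Kbr at 48 h raised 30 (81.1%) and lowered 4 (10.8%), against 27.3% and 34.5% of all genes, with medians of 0.60 and -0.06. The 17 rises with low Kbr at 24 h depended on single arrays: they were 4 without low dose array 3, 7 without low dose array 2, 5 without vehicle array 1 and 11 without vehicle array 2. They were 7 after median centring of the arrays, 5 when only the Kbr set entered the model and 0 with vehicle and low Kbr alone. With the replicate number, which pairs the Kbr arrays, as a block they were 24, the additional members being PSMA3, PSMA7, PSMB4, PSMC2, PSMC3, PSME3 and POMP. The counts of these other fits are given without the shares of all genes. The 26 rises with high Kbr at 24 h were 17 without vehicle array 1, and the 30 with low Kbr at 48 h were 17 with those groups alone.

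The 48 h cultures of the other set also had more members raised than lowered. CdCl at 48 h raised 17 members (45.9%) and lowered 2 (5.41%), against 20.7% and 22.0% of all genes, with a median of 0.19 over members and -0.01 over all genes. Leaving out vehicle array 1, 2 or 3 or CdCl array 1 or 3 left 1 fall. Di at 48 h raised 18 (48.6%) and lowered 1 (2.7%), against 19.1% and 23.9% of all genes, with medians of 0.28 and -0.01. At 12 h fewer members passed. CdCl raised 3 members and lowered 6, against 13.4% and 30.5% of all genes. All genes had a median of -0.16 there, and the members a median 0.14 above it. After median centring, CdCl at 12 h raised 7 members and lowered 3, against 18.9% and 18.1% of all genes. Differences of CdCl at 12 h are therefore given below relative to the median of all genes. Di at 12 h raised 0 members and lowered 0 by limma, against 1.67% and 4.60% of all genes, and 13 were higher and 3 lower at an unadjusted p under 0.05. Without vehicle array 1 it raised 1, without Di array 1 it raised 2, and with only the 18 arrays of its own set in the model it raised 11 and lowered 2. The counts at an unadjusted p and in these further fits are given without the shares of all genes. They are therefore not read as particular to the members.

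**Figure D1:**
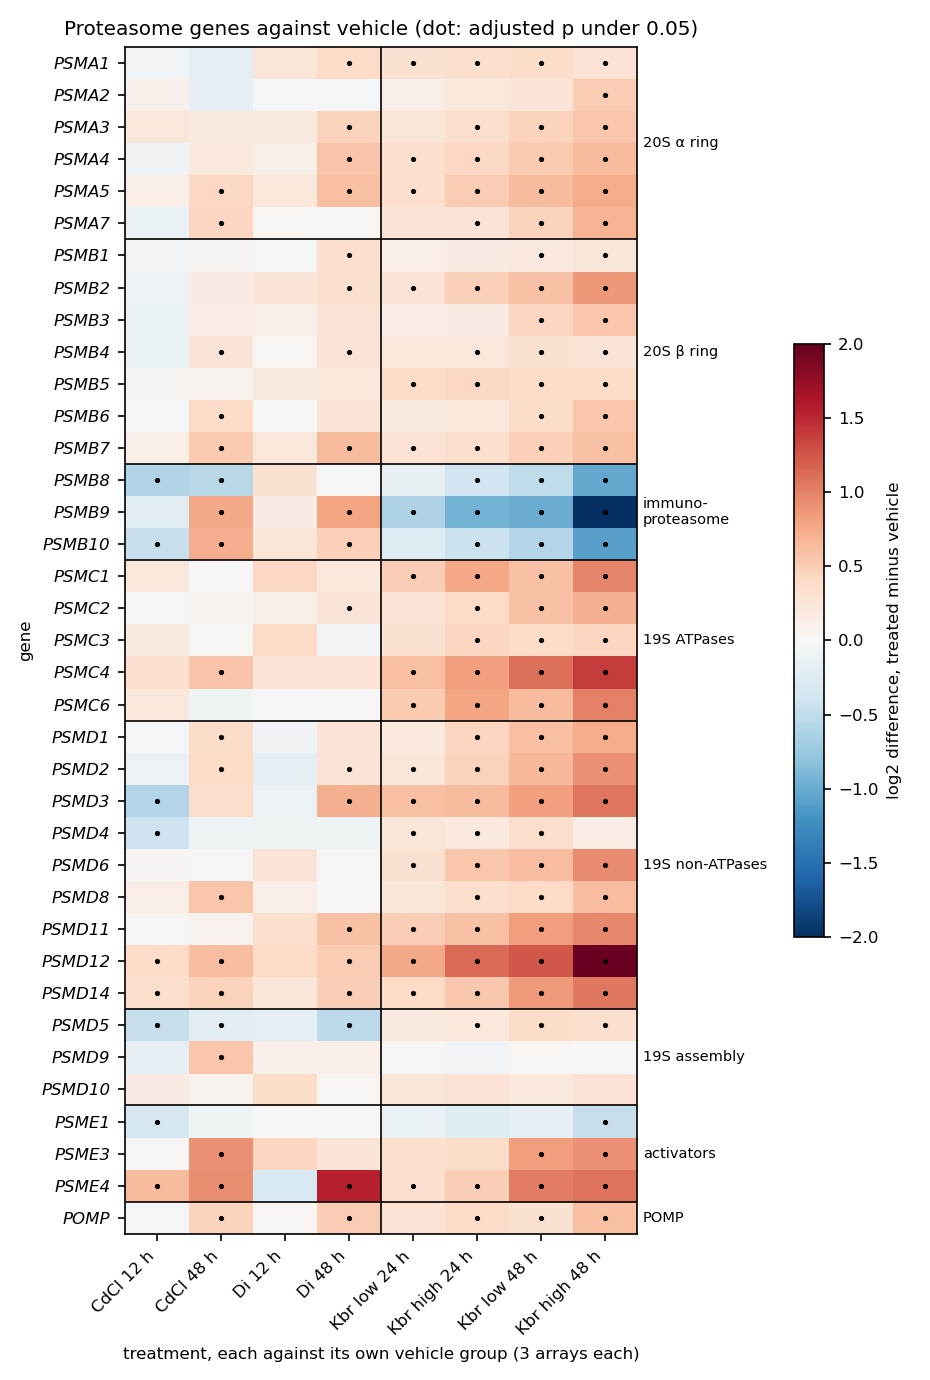
Log2 difference from vehicle for the 37 measured proteasome genes (rows, grouped by role) in the 8 treated groups (columns, 3 arrays each against 3), with a dot where the adjusted p was under 0.05. The rows of PSMB8, PSMB9 and PSMB10 are blue in all 4 Kbr columns, where 16 other members carry a dot for a rise in each, and PSME4 is darkest in the Di 48 h column at 1.56.

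Over the Kbr doses, the group means of 31 of the 37 members ran in the order vehicle, low, high at 24 h, and those of 4 ran in the reverse order. At 48 h the numbers were 27 and 4. The members that rose in all 4 Kbr comparisons numbered 16, namely PSMA1, PSMA4, PSMA5, PSMB2, PSMB5, PSMB7, PSMC1, PSMC4, PSMC6, PSMD2, PSMD3, PSMD6, PSMD11, PSMD12, PSMD14 and PSME4, and PSMB9 alone fell in all 4. The comparisons at each time share their vehicle arrays. These orders and repeated calls were not counted over all genes, so they are not read as particular to the members.

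Among the alpha-ring genes, which form the gated outer rings of the core, 6 of 7 were measured and all 6 rose with high Kbr at 48 h, by 0.29 (PSMA1) to 0.75 (PSMA5). Low Kbr raised 3 of them at 24 h and 5 at 48 h, and high Kbr 5 at 24 h. With a replicate block PSMA3 (0.25, adjusted p = 0.0251) and PSMA7 (0.26, adjusted p = 0.00221) also passed with low Kbr at 24 h, and PSMA2 (0.26, adjusted p = 0.0203) with low Kbr at 48 h. PSMA5 read 10.64, 10.72 and 10.79 on the 48 h vehicle arrays, 11.28, 11.38 and 11.38 with low Kbr, and 11.38, 11.55 and 11.48 with high Kbr. All treated arrays lay above all vehicle arrays, and the differences were 0.63 ± 0.08 (adjusted p = 9.72e-07) for the low and 0.75 ± 0.08 (adjusted p = 1.51e-08) for the high dose. A dimmer probe set of PSMA5 moved the other way, by -0.11 at the low and -1.78 at the high dose, and the mean of the gene's probe sets fell by 0.51 with high Kbr at 48 h. After Di at 48 h, 4 of the 6 rose, PSMA1, PSMA3, PSMA4 (0.57 ± 0.10) and PSMA5 (0.60 ± 0.08), the last again with its dimmer probe set lower, at -2.11. CdCl at 48 h raised 2, PSMA5 (0.41 ± 0.08, with its dimmer probe set at -0.49) and PSMA7 (0.42 ± 0.10). CdCl at 12 h raised 0 of the 6 without centring. After centring PSMA3 (0.39, adjusted p = 0.0073) and PSMA5 (0.30, adjusted p = 0.0379) rose, where 18.9% of all genes did. The probe sets used for PSMA1 and PSMA7 are of a kind that may bind related transcripts.

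All 7 standard beta-ring genes rose with Kbr at 48 h, at the low dose by 0.20 to 0.59 and at the high dose by 0.24 to 0.87. PSMB2, a beta subunit without a cutting site, changed most. It read 11.91, 12.04 and 12.25 on the 48 h vehicle arrays, 12.40, 12.70 and 12.86 with low Kbr, and 12.85, 12.96 and 13.01 with high Kbr. Its other probe sets were also higher there, by 0.58 and 0.87 with low Kbr and by 1.06 and 1.68 with high Kbr, and both were lower after Di at 48 h (-0.03 and -0.48), where the one used rose by 0.33. No treated Kbr array at 48 h lay as low as any vehicle array in the probe set used, and the differences were 0.59 ± 0.09 (adjusted p = 1.14e-05) and 0.87 ± 0.09 (adjusted p = 6.73e-09). PSMB4, another subunit without a cutting site, stood at 0.21 with low Kbr at 24 h (adjusted p = 0.061, and 0.0156 with a replicate block), and its dimmest probe set was lower where the one used rose after CdCl at 48 h (-0.02) and with high Kbr at 24 h (-0.06). The cutting subunits rose less than PSMB2. PSMB5, which cuts after hydrophobic residues, read 11.59, 11.63 and 11.78 on the 48 h vehicle arrays, 11.78, 12.14 and 12.26 with low Kbr, and 11.74, 12.08 and 12.31 with high Kbr. The dose groups overlapped each other and touched the vehicle range, and the differences were 0.39 ± 0.13 (adjusted p = 0.0161) and 0.38 ± 0.13 (adjusted p = 0.0147). By replicate number each treated array lay above its vehicle array. PSMB5 did not pass at the high dose without vehicle array 1 or high dose array 3 (adjusted p = 0.0535 and 0.133), nor at the low dose without vehicle array 1 or low dose array 2 or 3 (adjusted p = 0.0602, 0.0601 and 0.102). PSMB6, which cuts after acidic residues, read 11.45, 11.64 and 11.79 with vehicle, 11.79, 12.07 and 12.14 with low Kbr, and 11.89, 12.30 and 12.33 with high Kbr. High Kbr arrays all lay above vehicle (0.55 ± 0.11, adjusted p = 8.96e-05), and the lowest low dose array met the highest vehicle array (0.37 ± 0.11, adjusted p = 0.00661, and 0.0587 without vehicle array 1). Each low dose array of PSMB6 lay above the vehicle array of its number.

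PSMB7, which cuts after basic residues, rose in 6 of the 8 comparisons. At 48 h it read 12.81, 12.84 and 12.85 with CdCl and 13.06, 12.94 and 12.87 with Di, against 12.33, 12.25 and 12.37 with vehicle. Every treated array lay above every vehicle array, by 0.52 ± 0.10 for CdCl (adjusted p = 6.55e-05) and 0.64 ± 0.10 for Di (adjusted p = 2.94e-06). In the Kbr set at 48 h it read 12.50, 12.65 and 12.80 with vehicle, 12.94, 13.24 and 13.21 with low Kbr, and 13.08, 13.32 and 13.31 with high Kbr, again without overlap (0.48 ± 0.10 and 0.59 ± 0.10). PSMB5 did not pass after CdCl or Di at 48 h (0.07 ± 0.13 and 0.23 ± 0.13). PSMB6 rose after CdCl (0.38 ± 0.11, adjusted p = 0.00592) and stood at 0.26 ± 0.11 after Di (adjusted p = 0.0593).

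The immunoproteasome genes ran against the rest of the core in the Kbr set. All 3 fell with high Kbr at 24 h and with both doses at 48 h. PSMB9, the interferon-inducible counterpart of PSMB6, read 7.43, 7.46 and 7.56 on the 48 h vehicle arrays, 6.27, 6.63 and 6.55 with low Kbr, and 5.15, 5.57 and 5.76 with high Kbr. The 3 groups did not overlap. PSMB9 was lower by 1.00 ± 0.13 at the low dose (adjusted p = 4.42e-07) and by 1.99 ± 0.13 at the high dose (adjusted p = 3.85e-13), which is 3.97-fold. At 24 h it read 7.91, 7.82 and 7.71 with vehicle, 7.34, 7.24 and 7.03 with low Kbr, and 6.98, 7.04 and 6.58 with high Kbr. Both dose groups lay below vehicle, with differences of -0.61 ± 0.13 (adjusted p = 0.0019) and -0.95 ± 0.13 (adjusted p = 1.56e-06).

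PSMB8, the counterpart of PSMB5, read 10.35, 10.22 and 10.36 on the 48 h vehicle arrays, 9.79, 9.80 and 9.81 with low Kbr, and 9.19, 9.28 and 9.37 with high Kbr. The groups stood apart at both steps, and PSMB8 was lower by 0.51 ± 0.09 at the low dose (adjusted p = 5.39e-05) and by 1.03 ± 0.09 at the high dose (adjusted p = 2.11e-10). At 24 h the low dose did not pass (-0.14 ± 0.09) and the high dose did (-0.39 ± 0.09, adjusted p = 0.00134). PSMB10, the counterpart of PSMB7, read 7.87, 7.89 and 8.16 with vehicle at 48 h, 7.41, 7.17 and 7.57 with low Kbr, and 6.62, 6.60 and 7.45 with high Kbr. High dose array 3 lay within the low dose range, and both dose groups lay below vehicle (-0.59 ± 0.15, adjusted p = 0.00164, and -1.08 ± 0.15, adjusted p = 3.51e-07). At 24 h PSMB10 stood at -0.43 ± 0.15 with high Kbr (adjusted p = 0.0191). It did not pass there without vehicle array 3 or high dose array 1 (adjusted p = 0.0654 and 0.0621), nor after median centring (-0.34, adjusted p = 0.0777).

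At 48 h after CdCl and Di the immunoproteasome genes did not move as a group. PSMB9 at 48 h read 8.48, 8.42 and 8.41 with CdCl and 8.38, 8.49 and 8.54 with Di, against 7.68, 7.66 and 7.68 with vehicle. All treated arrays lay above vehicle, by 0.77 ± 0.13 (adjusted p = 1.88e-05) and 0.80 ± 0.13 (adjusted p = 9.37e-06). PSMB10 read 8.81, 8.72 and 8.64 with CdCl and 8.29, 8.56 and 8.54 with Di, against 7.96, 7.92 and 8.10 with vehicle. Again all treated arrays lay above vehicle, and the differences were 0.73 ± 0.15 (adjusted p = 0.000188) and 0.47 ± 0.15 (adjusted p = 0.0102). PSMB8 read 9.21, 9.35 and 9.26 with CdCl and 9.81, 9.78 and 9.91 with Di, against 9.86, 9.70 and 9.94 with vehicle. The CdCl arrays lay below all vehicle arrays (-0.56 ± 0.09, adjusted p = 1.47e-05), and the Di arrays overlapped them (0.00 ± 0.09). At 12 h, relative to the median of all genes, PSMB8 stood at -0.44 after CdCl, with arrays at 8.56, 8.76 and 8.76 against 9.41, 9.26 and 9.21 with vehicle, and it also fell after centring (adjusted p = 0.00262). PSMB10 stood at -0.30 on that scale and did not pass after centring (adjusted p = 0.121), and PSMB9 stood at -0.07 after centring (adjusted p = 0.735). Di at 12 h left PSMB8, PSMB9 and PSMB10 higher by 0.30, 0.16 and 0.24, none of which passed by limma.

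**Figure D2:**
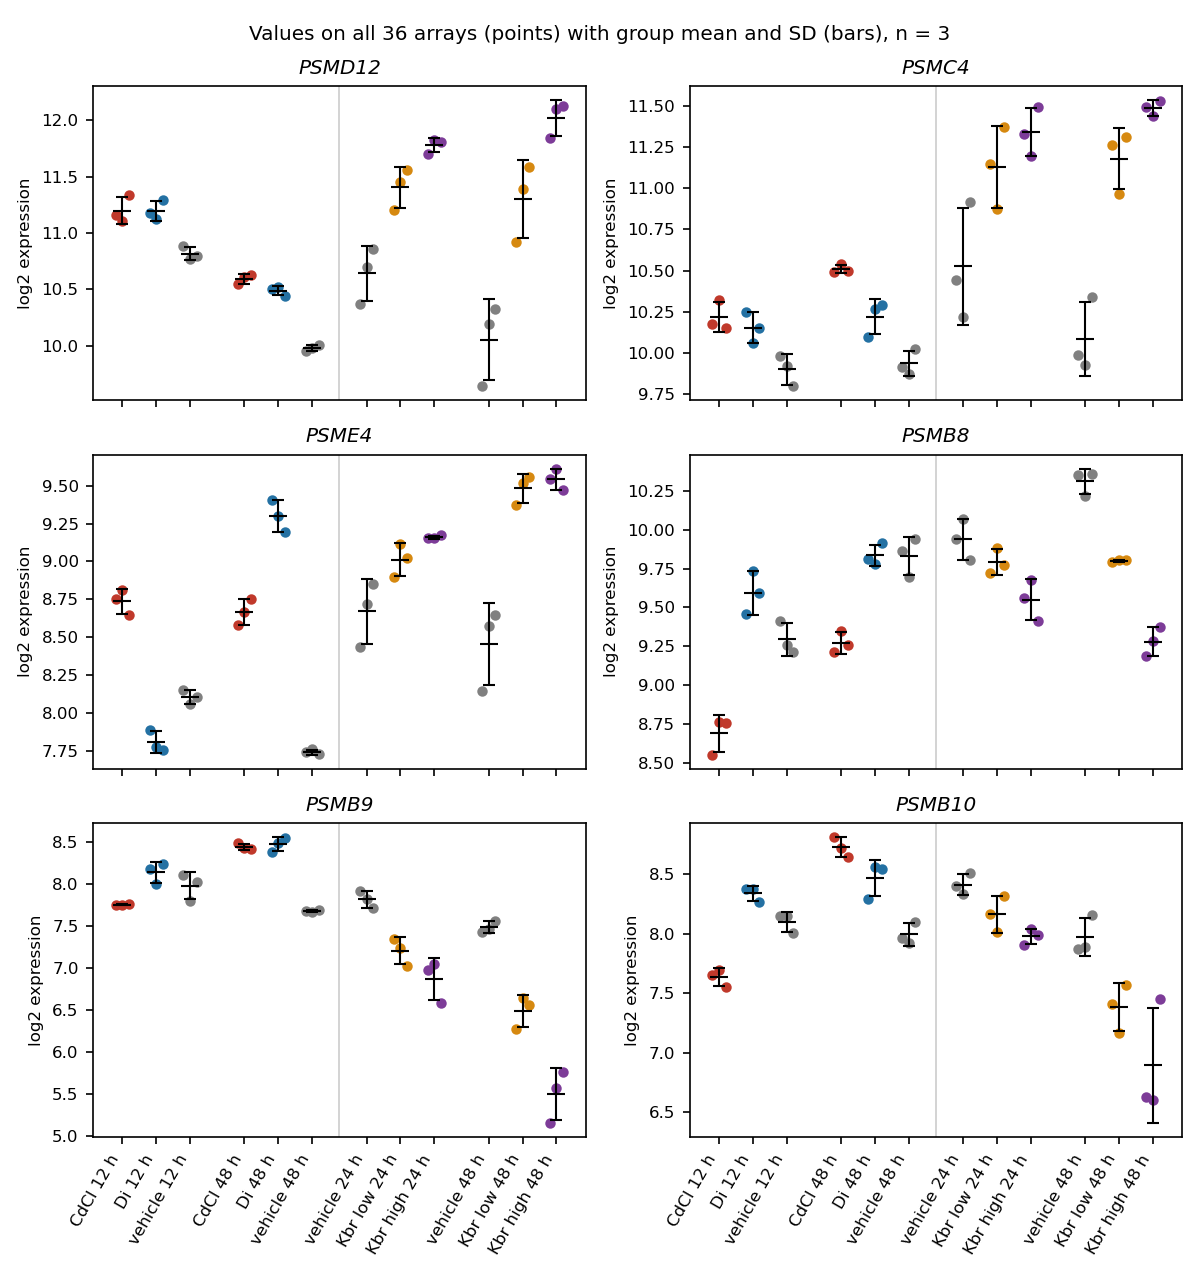
Log2 expression (vertical axes, each with its own range) of 6 proteasome genes on all 36 arrays (points) by group, with the mean and SD of the 3 arrays. In the Kbr set PSMD12 and PSMC4 climb and PSMB8, PSMB9 and PSMB10 descend over vehicle, low and high dose at 48 h, while PSMB9 with CdCl and Di at 48 h lies above its vehicle arrays.

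The windows of 250 bases before to 50 bases after the annotated start, from RefSeq on GRCh38.p14, were found for 32 of the 37 measured members, and those of PSMA7, PSMB1, PSMB6, PSMB7 and PSMD4 were not used here. The core of the interferon-stimulated response element, GAAANNGAAA on either strand, lay in 5 of the 32 (15.6%), in PSMA4, PSMB4, PSMB8, PSMB10 and PSME1, and in 4.38% of the 27305 gene symbols with a window. Of these 5, PSMA4 and PSMB4 rose with high Kbr at 48 h (0.64 and 0.26) and the other 3 fell, while PSMB9, which fell most, had no match in its window. The palindromic STAT site TTCNNNGAA lay in 7 members (21.9%) and in 9.38% of all symbols. A match is a description of letters and not a bound site. The windows of the 2 immunoproteasome genes with a match are shown to set out where the core lies in that group, with the core in capitals, 5' to 3' along the gene's strand. They are chr6:32843998-32844297 on the minus strand for PSMB8, which has another annotated start without a match, and chr16:67936801-67937100 on the minus strand for PSMB10. In PSMB8 the core reads on the opposite strand.
PSMB8: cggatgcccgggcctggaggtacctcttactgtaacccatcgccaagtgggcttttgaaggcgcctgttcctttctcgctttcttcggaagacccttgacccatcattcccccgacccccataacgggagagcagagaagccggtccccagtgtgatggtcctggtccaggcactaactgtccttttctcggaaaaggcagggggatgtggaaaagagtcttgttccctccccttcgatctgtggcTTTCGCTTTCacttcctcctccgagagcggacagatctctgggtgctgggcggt
PSMB10: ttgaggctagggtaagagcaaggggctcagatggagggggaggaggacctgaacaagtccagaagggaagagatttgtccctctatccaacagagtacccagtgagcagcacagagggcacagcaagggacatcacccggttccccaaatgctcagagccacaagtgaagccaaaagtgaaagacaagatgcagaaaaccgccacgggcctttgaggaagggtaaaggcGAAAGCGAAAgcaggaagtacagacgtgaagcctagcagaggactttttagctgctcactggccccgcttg

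The ATPases of the 19S base, which unfold substrates, rose with Kbr in every measured case but 2. All 5 measured members rose with high Kbr at 24 h and with both doses at 48 h, and 3 of 5 with low Kbr at 24 h, where PSMC2 (0.27) and PSMC3 (0.31) did not pass but did with the replicate number as a block (adjusted p = 0.00516 and 0.0189). PSMC4 changed most. It read 9.99, 9.93 and 10.34 on the 48 h vehicle arrays, 11.26, 10.97 and 11.31 with low Kbr, and 11.49, 11.44 and 11.53 with high Kbr. Both dose groups lay above vehicle and the high dose above the low, with differences from vehicle of 1.10 ± 0.14 (adjusted p = 3.15e-07) and 1.40 ± 0.14 (adjusted p = 1.11e-09), or 2.64-fold for the high dose. At 24 h PSMC4 read 10.44, 10.22 and 10.92 with vehicle, 11.14, 10.87 and 11.37 with low Kbr, and 11.33, 11.20 and 11.49 with high Kbr. Low dose array 2 lay below vehicle array 3 there, and the differences were 0.60 ± 0.14 (adjusted p = 0.00365) and 0.81 ± 0.14 (adjusted p = 3.09e-05). By replicate number each low dose array lay above its vehicle array. PSMC6 and PSMC1 rose with high Kbr at 48 h by 1.02 ± 0.13 and 0.97 ± 0.13, PSMC2 by 0.70 ± 0.10 and PSMC3 by 0.44 ± 0.15. PSMC3 did not pass there without vehicle array 2 or high dose array 3 (adjusted p = 0.0928 and 0.0979). The other 2 probe sets of PSMC2 were lower in that comparison (-0.75 and -0.28), and the mean of its probe sets stood at -0.11. They were also lower with low Kbr at 48 h (-0.48 and -0.07), where the one used rose by 0.58.

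After CdCl at 48 h PSMC4 was the 1 ATPase gene that rose. It read 10.49, 10.54 and 10.50 with CdCl and 10.10, 10.27 and 10.29 with Di, against 9.91, 9.87 and 10.02 with vehicle. The CdCl arrays stood 0.57 ± 0.14 above vehicle (adjusted p = 0.00125), and the Di arrays, also all above it, did not pass (0.28 ± 0.14, adjusted p = 0.0989). After Di at 48 h PSMC2 rose by 0.25 ± 0.10, a call lost without any 1 of the 6 arrays (adjusted p = 0.0509 to 0.124), while its other probe sets were lower (-0.58 and -0.45) and the mean of its probe sets fell by 0.26 (adjusted p = 0.0165). PSMC6 stood at -0.09 after CdCl and 0.01 after Di at 48 h, against 1.02 after high Kbr. With CdCl at 12 h 0 of the 5 ATPase genes passed without centring. After centring PSMC4 (0.48, adjusted p = 0.00438) and PSMC6 (0.37, adjusted p = 0.00977) rose, where 18.9% of all genes did. PSMC1, PSMC2 and PSMC3 did not pass (adjusted p = 0.0651, 0.213 and 0.0859).

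The non-ATPase genes of the 19S particle, which include ubiquitin receptors and the deubiquitinase, had the largest rise of the family. With Kbr, 7 of 9 measured rose at the low and 9 at the high dose at 24 h, and 9 and 8 at 48 h. PSMD12, a scaffold subunit of the lid, read 9.64, 10.19 and 10.32 on the 48 h vehicle arrays, 10.91, 11.39 and 11.59 with low Kbr, and 11.84, 12.10 and 12.12 with high Kbr. The 3 groups stood apart. PSMD12 rose by 1.25 ± 0.15 with the low dose (adjusted p = 1.36e-07) and by 1.97 ± 0.15 with the high dose (adjusted p = 7.06e-12), or 3.92-fold. A dimmer probe set of PSMD12 was higher by less at 48 h, by 0.47 and 0.92. At 24 h it read 10.37, 10.69 and 10.86 with vehicle, 11.20, 11.46 and 11.56 with low Kbr, and 11.70, 11.82 and 11.81 with high Kbr, once more without overlap. Its differences at 24 h were 0.76 ± 0.15 (adjusted p = 0.00101) and 1.14 ± 0.15 (adjusted p = 9.27e-07), and the dimmer probe set stood at 0.65 and 1.15.

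PSMD14, the deubiquitinase that removes ubiquitin chains at the lid, rose with low Kbr at 48 h by 0.85 ± 0.09 and with high Kbr by 1.06 ± 0.09. PSMD3, a lid subunit, rose by 0.81 ± 0.19 and 1.06 ± 0.19 at the same doses, and PSMD11 by 0.84 ± 0.15 and 0.96 ± 0.15, with a much dimmer probe set of PSMD11 at -0.08 for the low dose. PSMD6 rose by 0.62 ± 0.09 and 0.94 ± 0.09, and PSMD2, a large scaffold of the base, by 0.67 ± 0.08 and 0.92 ± 0.08. PSMD4, a ubiquitin receptor, was the exception. It rose with low Kbr at 24 h and 48 h (0.24 ± 0.07 and 0.35 ± 0.07) and with high Kbr at 24 h (0.20 ± 0.07), and stood at 0.15 ± 0.07 with high Kbr at 48 h (adjusted p = 0.0893). At 24 h PSMD4 did not pass at the low dose without vehicle array 1 or low dose array 2 or 3 (adjusted p = 0.0787 to 0.138), nor at the high dose without vehicle array 1 or 3 or high dose array 2 or 3 (adjusted p = 0.053 to 0.141).

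CdCl and Di at 48 h each raised 5 of the 9 non-ATPase genes, and PSMD2, PSMD12 and PSMD14 were raised by both. PSMD12 read 10.54, 10.61 and 10.63 with CdCl and 10.50, 10.52 and 10.44 with Di, against 9.95, 9.98 and 10.01 with vehicle. All treated arrays lay above vehicle, by 0.62 ± 0.15 (adjusted p = 0.00128) and 0.51 ± 0.15 (adjusted p = 0.00634). The dimmer probe set of PSMD12 stood at 0.20 after CdCl and was lower after Di, at -0.25, where the mean of its probe sets stood at 0.13 (adjusted p = 0.425). CdCl also raised PSMD8 (0.55 ± 0.13) and PSMD1 (0.36 ± 0.15, lost without vehicle array 1 or 2 or CdCl array 2 or 3, adjusted p = 0.0828 to 0.169), and Di also raised PSMD3 (0.70 ± 0.19) and PSMD11 (0.59 ± 0.15, with its dimmer probe set at -0.24). At 12 h, relative to the median of all genes, CdCl stood at 0.54 for PSMD12 and 0.51 for PSMD14, and at -0.43 for PSMD3 and -0.25 for PSMD4. PSMD12 read 11.16, 11.10 and 11.33 with CdCl at 12 h, against 10.88, 10.77 and 10.79 with vehicle, without overlap (adjusted p = 0.0375). The call was lost without CdCl array 1 or 3 or any of the 3 vehicle arrays (adjusted p = 0.053 to 0.145), and after centring it passed (adjusted p = 0.0117). PSMD3 did not pass after centring (adjusted p = 0.0697), nor without vehicle array 3.

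The antioxidant response element core TGACNNNGC, on either strand, lay in the windows of 11 of the 32 members with a sequence (34.4%) and in those of 16.1% of all symbols. The 11 were PSMA4, PSMB3, PSMB9, PSMC4, PSMD1, PSMD3, PSMD12, PSMD5, PSMD9, PSME1 and PSME4, which include genes that rose and genes that fell. Pairs of heat shock element units, TTCNNGAA and GAANNTTC, lay in 9.38% and 0 of the members' windows, against 9.46% and 8.21% of all symbols. The CCAAT box lay in 16 members, 50% of the 32, against 39.7% of all symbols. The windows of PSMD12, chr17:67366528-67366827 on the minus strand, and PSMC4, chr19:39970915-39971214 on the plus strand, are shown because these genes had the 2 largest rises with high Kbr. Capitals mark the core, which in PSMC4 reads on the opposite strand and starts 27 bases after the start site.
PSMD12: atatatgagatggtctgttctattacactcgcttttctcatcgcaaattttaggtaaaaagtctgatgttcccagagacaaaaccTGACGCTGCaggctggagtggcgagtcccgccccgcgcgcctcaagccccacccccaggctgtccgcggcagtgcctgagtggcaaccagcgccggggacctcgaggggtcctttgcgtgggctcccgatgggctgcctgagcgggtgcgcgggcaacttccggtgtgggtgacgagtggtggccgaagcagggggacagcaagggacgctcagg
PSMC4: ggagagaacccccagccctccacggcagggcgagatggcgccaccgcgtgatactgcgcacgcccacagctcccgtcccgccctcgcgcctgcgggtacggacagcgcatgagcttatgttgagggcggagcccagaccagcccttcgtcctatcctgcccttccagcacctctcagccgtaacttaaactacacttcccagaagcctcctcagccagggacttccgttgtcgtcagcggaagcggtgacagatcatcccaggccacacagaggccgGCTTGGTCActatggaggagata

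The 3 chaperones that assemble the 19S base, PSMD5, PSMD9 and PSMD10, did not move together. PSMD9 read 10.83, 10.88 and 10.92 with CdCl at 48 h and 10.52, 10.41 and 10.45 with Di, against 10.36, 10.31 and 10.31 with vehicle. All arrays of both compounds lay above vehicle, and CdCl passed (0.55 ± 0.08, adjusted p = 3.44e-06) where Di did not (0.13 ± 0.08). In the 4 Kbr comparisons PSMD9 stood between -0.06 and 0.04. PSMD5, which also inhibits the assembled particle, read 9.29, 9.17 and 9.29 with Di at 48 h, against 9.74, 9.76 and 9.84 with vehicle, and fell by 0.53 ± 0.08 (adjusted p = 5.24e-06). After CdCl it stood at -0.21 ± 0.08 at 48 h (adjusted p = 0.0365, and 0.0516 to 0.193 without any vehicle array or CdCl array 1 or 3) and at -0.30 relative to the median of all genes at 12 h. With Kbr at 48 h it rose, by 0.37 ± 0.08 at the low and 0.32 ± 0.08 at the high dose. PSMD10, also known as gankyrin, stood between 0.05 and 0.37 in the 8 comparisons and passed in 0 of them by limma, and with the replicate number as a block it rose with high Kbr at 24 h and 48 h (adjusted p = 0.021 and 0.0137).

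The activators cap the core in place of the 19S particle. PSME4 encodes PA200, a nuclear activator that does not need ubiquitin, and it rose in 7 of the 8 comparisons. At 48 h it read 8.58, 8.67 and 8.75 with CdCl and 9.41, 9.30 and 9.19 with Di, against 7.74, 7.76 and 7.73 with vehicle. The 3 groups stood apart. PSME4 rose by 0.93 ± 0.11 with CdCl (adjusted p = 4.19e-08) and by 1.56 ± 0.11 with Di (adjusted p = 1.18e-12), or 2.95-fold. Its probe sets disagreed on the size: 1 nearly as bright as the one used (mean 8.64, against 8.72) was higher by 0.48 with CdCl and 0.55 with Di, and a dimmer one by 1.08 and 2.08. At 12 h it read 8.75, 8.81 and 8.65 with CdCl and 7.89, 7.77 and 7.75 with Di, against 8.15, 8.05 and 8.11 with vehicle. CdCl arrays lay above vehicle, at 0.80 relative to the median of all genes (adjusted p = 1.97e-05 in the uncentred fit), and Di arrays below it without passing (-0.30 ± 0.11, adjusted p = 0.0887). With Kbr at 48 h PSME4 read 8.14, 8.57 and 8.65 with vehicle, 9.37, 9.52 and 9.56 with the low dose, and 9.55, 9.61 and 9.47 with the high dose. Both dose groups lay above vehicle and overlapped each other (1.03 ± 0.11 and 1.09 ± 0.11). The nearly equally bright probe set stood at 0.81 and 0.47 there.

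PSME3 encodes the nuclear PA28-gamma activator, and its probe set may bind related transcripts. It read 10.47, 10.69 and 10.49 with CdCl at 48 h and 9.86, 9.87 and 9.97 with Di, against 9.63, 9.51 and 9.78 with vehicle. All treated arrays lay above vehicle, and CdCl passed (0.91 ± 0.18, adjusted p = 0.00012) where Di did not (0.26 ± 0.18). Its other probe sets were higher by 0.33 to 0.68 with CdCl. With Kbr at 48 h it read 9.83, 9.67 and 10.42 with vehicle, 10.80, 10.63 and 11.00 with the low dose, and 10.72, 10.72 and 11.22 with the high dose. The dose groups lay above vehicle, by 0.84 ± 0.18 (adjusted p = 0.000299) and 0.92 ± 0.18 (adjusted p = 5.48e-05). At 24 h PSME3 passed with a replicate block at the low and high dose (0.33 and 0.36, adjusted p = 0.00826 and 0.00141) and not without it (adjusted p = 0.228 and 0.101). PSME1 encodes a subunit of the interferon-inducible PA28 activator. It read 11.30, 10.90 and 11.11 on the 48 h vehicle arrays, 10.94, 10.81 and 11.06 with low Kbr, and 10.71, 10.48 and 10.73 with high Kbr. The high dose arrays lay below vehicle (-0.46 ± 0.10, adjusted p = 0.000268), and the low dose arrays overlapped it (-0.16 ± 0.10). PSME1 was also lower with high Kbr at 24 h (-0.23), which passed with a replicate block (adjusted p = 0.0186) and not without (adjusted p = 0.0657).

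POMP, the chaperone that guides maturation of the core, rose in 5 of the 8 comparisons. At 48 h it read 12.77, 12.94 and 12.84 with CdCl and 12.99, 12.87 and 12.89 with Di, against 12.49, 12.26 and 12.46 with vehicle. Every treated array lay above vehicle, by 0.44 ± 0.11 (adjusted p = 0.00135) and 0.51 ± 0.11 (adjusted p = 0.000275). With Kbr at 48 h it read 12.51, 12.57 and 12.82 with vehicle, 12.73, 12.86 and 13.23 with the low dose, and 13.16, 13.16 and 13.40 with the high dose. The low dose overlapped vehicle (0.31 ± 0.11, adjusted p = 0.0198) and the high dose did not (0.60 ± 0.11, adjusted p = 1.89e-05). By replicate number each low dose array lay above its vehicle array. The low dose did not pass without vehicle array 1 or 2 or low dose array 3 (adjusted p = 0.102, 0.0684 and 0.215), nor after median centring (adjusted p = 0.0654). Low Kbr at 24 h stood at 0.29 (adjusted p = 0.00796 with a replicate block).

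Between the doses, high Kbr raised 7 members above low Kbr at 48 h and lowered 4, against 6.46% and 17.3% of all genes. The rises were PSMD12 (0.72 ± 0.15), PSMC6 (0.39 ± 0.13), PSMC1 (0.38 ± 0.13), PSMD6 (0.33 ± 0.09), POMP (0.30 ± 0.11), PSMB2 (0.29 ± 0.09) and PSMD2 (0.25 ± 0.08). The falls were PSMB9 (-0.99 ± 0.13), PSMB8 (-0.52 ± 0.09), PSMB10 (-0.49 ± 0.15) and PSME1 (-0.30 ± 0.10). After median centring 11 members were higher and 2 lower, against 13.5% and 11.2% of all genes. With the replicate number as a block PSMA2, PSMA7, PSMC4 and PSMD14 were also higher and PSMD4 lower (adjusted p = 0.00321 to 0.0461). The total of 11 members was 5 without high dose array 2, 7 without high dose array 3, 4 without low dose array 1, and 2 when only these groups entered the model. At 24 h limma called 0 members between the doses, against 0.685% of genes higher and 3.71% lower, with 6 members higher and 2 lower at an unadjusted p under 0.05. With the replicate number as a block, 4 rose at 24 h: PSMC1 (0.29), PSMD2 (0.22), PSMD6 (0.25) and PSMD12 (0.37, adjusted p = 0.00632). The share of all genes in that fit is not given.

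**Figure D3:**
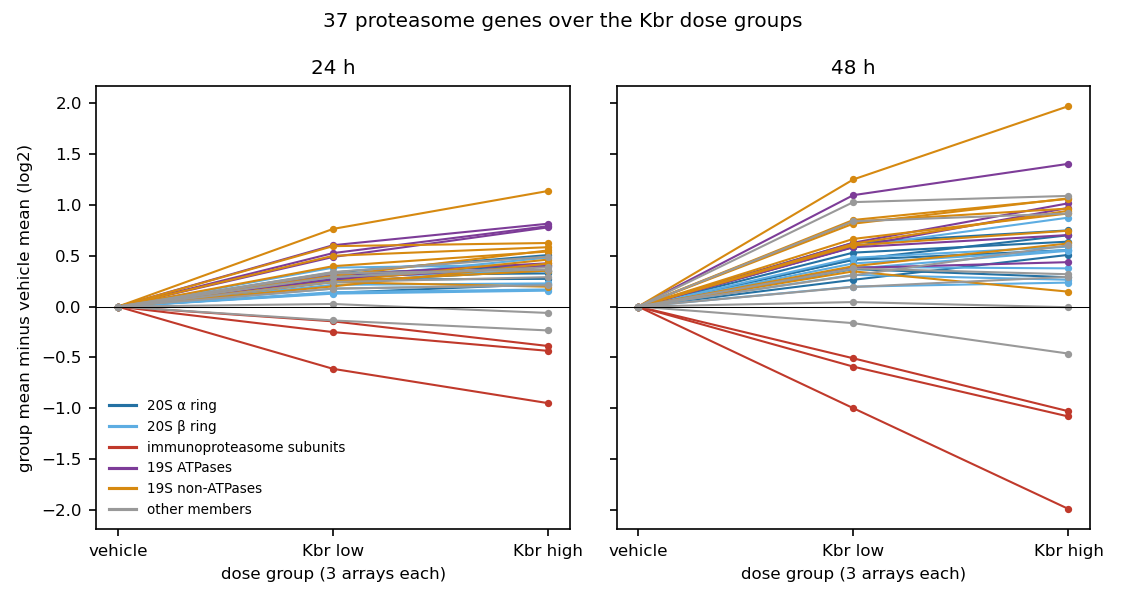
Group mean minus vehicle mean (log2, vertical axis) for the 37 members over vehicle, low Kbr and high Kbr (horizontal axis, 3 arrays each) at 24 h and 48 h, coloured by role. PSMD12 ends highest at 1.97 and the 3 immunoproteasome genes end lowest, at -1.03 to -1.99, at 48 h.

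The compounds of the other set were compared directly, since they share times and vehicle arrays. CdCl at 12 h was higher than Di for 1 member and lower for 9, against 13.6% and 22.1% of all genes. PSME4 was higher (0.93 ± 0.11), and PSMB8 (-0.90 ± 0.09), PSMB10 (-0.70 ± 0.15), PSMB9 (-0.39 ± 0.13) and PSMB2 (-0.37 ± 0.09) were lowest among those that passed. PSMD3 (-0.47) and PSME3 (-0.41) did not pass (adjusted p = 0.0556 and 0.0709). The median of all genes was -0.10 in this comparison, and after median centring 2 members were higher and 2 lower, against 16.5% and 16.2% of all genes. With only the arrays of their own set in the model, 18 members differed, a count given without the share of all genes in that fit. At 48 h CdCl was higher than Di for 5 members and lower for 7, against 20.5% and 17.1% of all genes. PSME3 (0.65 ± 0.18), PSMD8 (0.54 ± 0.13), PSMD9 (0.42 ± 0.08), PSMA7 (0.41 ± 0.10) and PSMD5 (0.32 ± 0.08) were higher with CdCl, and PSME4 (-0.63 ± 0.11), PSMB8 (-0.56 ± 0.09), PSMA1 (-0.55 ± 0.09) and PSMD11 (-0.51 ± 0.15) were among the lower. The much dimmer probe set of PSMD11 went the other way, at 0.67 from vehicle with CdCl and -0.24 with Di. The nearly equally bright probe set of PSME4 differed little between the compounds, at 0.48 with CdCl and 0.55 with Di.

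At 48 h the effects of CdCl and Di were also set against that of high Kbr, each relative to its own vehicle. The effect of CdCl was above that of high Kbr for 5 members and below it for 18, against 27.9% and 22.3% of all genes. The effect of Di was above for 5 and below for 14, against 23.6% and 19.9%. PSMB9 differed most, with an effect above that of high Kbr by 2.75 ± 0.18 for CdCl (adjusted p = 1.81e-12) and by 2.79 ± 0.18 for Di (adjusted p = 2.46e-12). PSMB10 differed by 1.81 ± 0.21 and 1.55 ± 0.21, PSMB8 by 0.47 ± 0.13 and 1.03 ± 0.13, and PSME1 by 0.37 ± 0.14 and 0.46 ± 0.14. The call of PSME1 for CdCl was lost without CdCl array 1 or 2, its vehicle array 2, Kbr vehicle array 1 or 3 or high dose array 2 (adjusted p = 0.0507 to 0.118). Below high Kbr were PSMD12 (-1.35 ± 0.21 and -1.46 ± 0.21), PSMC6 (-1.10 ± 0.18 and -1.01 ± 0.18), PSMD6 (-0.98 ± 0.12 and -0.96 ± 0.12) and PSMC4 (-0.83 ± 0.19 and -1.12 ± 0.19). PSMD9 was above high Kbr with CdCl (0.56 ± 0.12), and PSME4 with Di (0.47 ± 0.15). The nearly equally bright probe set of PSME4 stood closer, at 0.55 from vehicle with Di and 0.47 with high Kbr. Both comparisons share the Kbr arrays and the vehicle of CdCl and Di, and the beta-actin values given above differ between the sets.

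**Figure D4:**
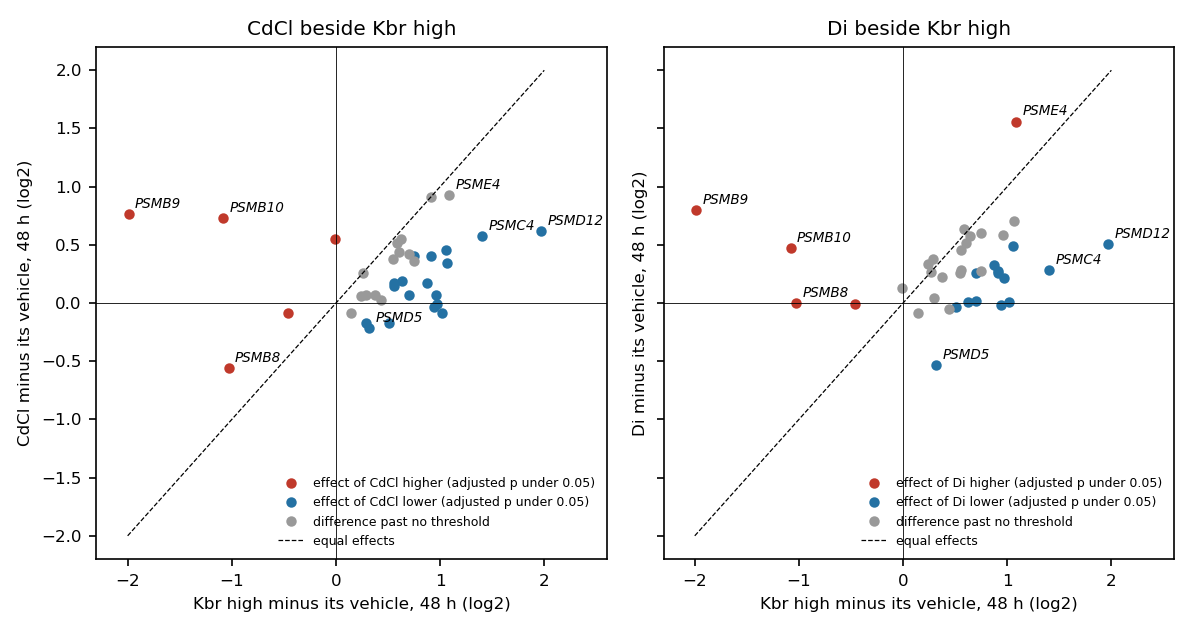
Log2 difference from vehicle at 48 h for the 37 members, CdCl (left) and Di (right) on the vertical axis and high Kbr on the horizontal axis, with colour for the test of the difference between the effects and a dashed line where they would be equal. PSMB9 and PSMB10 lie at upper left in both panels, and PSMD12 and PSMC4 lie at right below the line.

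The vehicle cultures themselves changed with time. From the 12 h to the 48 h vehicle arrays of CdCl and Di, 1 member was higher and 23 lower at 48 h, against 18.3% and 27.3% of all genes, with a median of -0.32 over members and -0.07 over all genes. PSMD1 (-1.17 ± 0.15), PSMD3 (-0.94 ± 0.19), PSMD2 (-0.86 ± 0.08) and PSMD12 (-0.84 ± 0.15) were lowest, and PSMB8 was the member that rose (0.54 ± 0.09). After median centring 1 rose and 14 fell, against 23.4% and 22.3% of all genes. In the vehicle of Kbr, 1 member was higher and 13 lower at 48 h than at 24 h, against 5.08% and 7.16% of all genes, with medians of -0.27 and -0.02. PSMB8 again rose (0.37 ± 0.09, adjusted p = 0.00873, and 0.092 without vehicle array 3 of 24 h), and PSME3 (-0.75 ± 0.18), PSMD12 (-0.59 ± 0.15) and PSMD1 (-0.53 ± 0.15) were among the falls. The 14 calls dropped to 1 without vehicle array 3 of 24 h, to 3 without vehicle array 1 of 48 h and to 7 without vehicle array 2 of 48 h. They were 6 after centring, 1 higher and 5 lower, against 5.86% and 5.27% of all genes, and 3 within the Kbr set alone and 0 with these groups alone. With the replicate number as a block PSMA3, PSMC1, PSMC2, PSMC3, PSMD3, PSMD11 and POMP fell too (adjusted p = 0.000269 to 0.0419).

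In the treated cultures the median change over time lay nearer to 0, a difference that was tested for single members only. The later minus the earlier group mean had a median of -0.14 with CdCl and -0.17 with Di, against -0.32 with their vehicle. With low and high Kbr it was -0.08 and -0.05, against -0.27 with vehicle. The change of effect, which subtracts the vehicle's own change, passed upward for 11 members and downward for 0 with CdCl, against 16.4% and 7.78% of all genes. An unadjusted p under 0.05 was reached by 16 and 0 members with CdCl. The median of all genes was 0.12 there, and 6 members passed after centring, PSMB10, PSMB9, PSMD3, PSME3, PSMD9 and PSMD2, against 9.44% of all genes. With Di 9 passed upward and 1 downward, against 15.1% and 13.9%, and after centring 4 upward, a smaller share than the 14.5% of all genes. For high Kbr 8 passed upward and 3 downward, against 6.89% and 8.10%, and 5 and 3 after centring, against 7.00% and 7.91%. With the replicate number as a block PSMB3, PSMC2, PSMD3, PSMD11 and PSME3 also passed upward (adjusted p = 0.00231 to 0.0304). The total of 11 was 6 without high dose array 2 of 48 h and 7 without vehicle array 3 of 24 h, vehicle array 1 or 2 of 48 h, high dose array 1 or 3 of 24 h, or high dose array 3 of 48 h, and it was 4 within the Kbr set alone. For low Kbr 3 passed upward and 0 downward, against 2.54% and 1.80%, with 10 and 2 at an unadjusted p under 0.05. With the replicate number as a block 9 passed, the additional members being PSMC2, PSMC4, PSMD6, PSMD11, PSMD12 and PSME3 (adjusted p = 0.0101 to 0.0449). That count is given without the share of all genes. The count of 3 was 0 without vehicle array 3 of 24 h and 1 without vehicle array 1 of 48 h, low dose array 1 or 2 of 24 h, or low dose array 2 of 48 h.

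**Figure D5:**
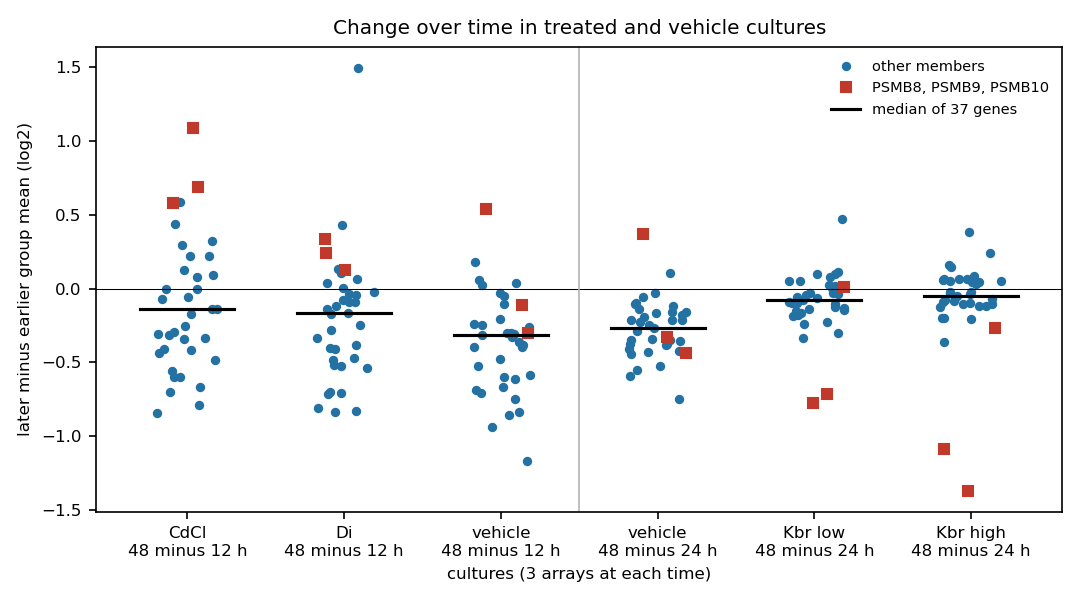
Later minus earlier group mean (log2, vertical axis) of each of the 37 members in treated and vehicle cultures (horizontal axis, 3 arrays at each time), with the median as a bar. The medians of both vehicle groups, -0.32 and -0.27, lie below those of the treated groups, and PSMB9 and PSMB10 (red squares, with PSMB8) drop furthest with high Kbr.

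Genes that act with the proteasome were read from lists of their own. Among 15 assembly, inhibitor and associated factors, all measured, high Kbr at 48 h raised 8 and lowered 1, and low Kbr at 48 h raised 9 and lowered 1. At 48 h 27.3% of all genes rose and 34.5% fell with high Kbr, and 23.8% and 23.2% with low Kbr. AKIRIN2, which brings proteasomes into the nucleus, rose with high Kbr at 48 h (1.24 ± 0.16), with CdCl at 48 h (1.12 ± 0.16) and with Di at 48 h (1.60 ± 0.16). ADRM1, a ubiquitin receptor of the 19S particle, rose with high Kbr by 1.19 ± 0.17. PSMG4, an assembly chaperone of the core, was the gene that fell, by 1.74 ± 0.12 with high Kbr at 48 h and by 1.11 ± 0.12 at 24 h. After CdCl at 48 h 2 of the 15 rose and 3 fell, among them PAAF1 (0.76 ± 0.10) and PSMG2 (-0.54 ± 0.08), and after Di at 48 h 6 rose and 1 fell. The shares over all genes were 20.7% and 22.0% for CdCl and 19.1% and 23.9% for Di, so the counts after CdCl did not exceed them.

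Of 8 genes of the NRF1 pathway 6 were measured, namely NFE2L1, NGLY1, VCP, NFE2L2, MAFF and MAFG. With each dose of Kbr at 48 h 5 rose, against 23.8% of all genes at the low and 27.3% at the high dose. The lowest of the 6 stood at 0.05 and -0.04. The 5 included the small MAF partners MAFF (1.89 ± 0.15) and MAFG (1.85 ± 0.22) and NRF2's gene NFE2L2 (0.90 ± 0.19) at the high dose. NFE2L1, NGLY1 and VCP are not given singly here, so these counts do not describe NRF1 itself. CdCl raised 4 of the 6 and lowered 1 at 48 h, against 20.7% and 22.0% of all genes. At 12 h it raised 3 and lowered 1 without centring, against 13.4% and 30.5%. MAFF stood highest after CdCl, at 2.20 ± 0.15 at 48 h and 3.73 relative to the median of all genes at 12 h. NFE2L2 was the gene that fell with CdCl at 48 h (-0.69 ± 0.19). Di at 48 h raised 2 of the 6, MAFF (2.01 ± 0.15) and MAFG (1.49 ± 0.22), against 19.1% of all genes. Among 7 measured ubiquitin genes and shuttle receptors, SQSTM1, the autophagy receptor p62, rose in all 4 Kbr comparisons (1.24 to 1.74 ± 0.16) and after CdCl and Di at 48 h (0.63 and 1.24 ± 0.16). CdCl at 12 h raised 3 of the 7 and lowered 3, against 13.4% and 30.5% of all genes. SQSTM1 stood highest there, at 1.33 without centring, where the median of all genes was -0.16. The shuttle UBQLN4 rose with high Kbr at 48 h by 1.02 ± 0.15 and UBQLN1 by 0.71 ± 0.07.

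Of 14 antigen presentation and interferon genes 12 were measured, and high Kbr at 48 h raised 2 and lowered 8. The falls were led by TAPBP, which loads peptides onto HLA class I (-1.58 ± 0.15), and by the peptide-trimming enzymes ERAP2 (-1.19 ± 0.17) and ERAP1 (-1.08 ± 0.19). Low Kbr at 48 h lowered 7 and raised 2, with TAPBP at -1.23 ± 0.15 and the interferon regulator IRF1 higher by 1.10 ± 0.26. At 24 h the list did not fall in this way: high Kbr raised 4 and lowered 2, against 15.4% and 25.3% of all genes. Low Kbr at 24 h raised 0 and lowered 1, against 6.93% and 8.28%. CdCl at 48 h raised 4 and lowered 1. The peptide transporter genes TAP2 (1.18 ± 0.15) and TAP1 (0.63 ± 0.10) rose, and TAPBP fell (-0.68 ± 0.15). Di at 48 h raised 6, led by TAP2 (2.09 ± 0.15) and IRF1 (1.14 ± 0.26). Of all genes, at 48 h, the shares that rose and fell were 27.3% and 34.5% for high Kbr, 23.8% and 23.2% for low Kbr, 20.7% and 22.0% for CdCl, and 19.1% and 23.9% for Di. At 48 h the median gene of the antigen presentation list stood at -0.52 with high Kbr, -0.42 with low Kbr, 0.40 with CdCl and 0.29 with Di. The medians of all genes were -0.06, 0.00, -0.01 and -0.01. These lists were described by counts and not tested as sets.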

How the data were processed

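RNA of HK-2 cells was measured on 36 single-colour Affymetrix arrays, 12 groups of 3, grouped by their labels. The log2 values were deposited by the authors and made with GCRMA, per the submitters' processing notes, a method that corrects background by probe sequence and quantile-normalizes arrays. GCRMA compresses low values, so differences of dim genes are uncertain. Array medians lay between 2.91 and 3.02, and arrays of 1 group correlated at 0.983 to 0.996. Precision is limited by the 3 arrays in a group.

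Of 54675 probe sets, 41091 named 1 gene in the platform annotation, 1801 several and 11721 none, and 62 were controls. Probe sets above 4 on at least 3 arrays were kept, and each gene took the one with the highest mean over all arrays, which gave 11092 genes. Group means were fitted with limma 3.58.1 in R 4.3.3, with Benjamini-Hochberg adjustment over all genes and a threshold of 0.05. The fit was tested on simulated data with independent noise on each array, so without the pairing of Kbr arrays. Each simulation held 50 changed genes of each size among 11092. Of true changes of 0.3 it called 6% to 12%, of 0.5 24% to 46%, and of 1 78% to 92%. A small difference that did not pass is thus not shown to be absent. The p-values measure the spread between these samples, which the labels call biological replicates without saying how cultures were separated. In the Kbr set same-numbered arrays deviated together (45 of 45 pairs of groups and numbers with a correlation above 0.1, between 0.218 and 0.701), so the numbers pair the arrays there. In the CdCl and Di set 8 of 45 did, so they do not. Members of the Kbr comparisons whose call changed with the replicate number as a block are named. Overlap of arrays, the SE and the fits that left out an array were read without this pairing.

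Members and gene lists were chosen with earlier results of these data known. All measured members may be named. Values on every array are given for the member of each role with the largest called difference, the cutting subunits, POMP, PSMD12 and the activators. Alternatives were no filter, a filter at 6, centring on array medians, quantile normalization, averaging the probe sets of a gene, an intensity trend, a replicate block, fits on the groups compared or on 1 set, and leaving out each array.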

Additional observations from a re-analysis of the deposited data

Results flagged for a closer look

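The effect of treatment at the later time differed from that at the earlier time for 35 combinations of a member and a treatment, by the interaction term of limma with an adjusted p under 0.05. Upward and downward, 29.7% and 0% of members passed with CdCl and 24.3% and 2.7% with Di. The shares of all genes were 16.4% and 7.78%, and 15.1% and 13.9%. For low Kbr 8.11% and 0% of members passed, against 2.54% and 1.80% of all genes. For high Kbr 21.6% and 8.11% passed, against 6.89% and 8.10%. Each value is the later log2 difference from vehicle minus the earlier one, and the vehicle arrays of both times enter it, so treatments of 1 set share them.

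With CdCl, 48 h against 12 h, the differing members were PSMB10 (1.20), PSMB9 (0.99), PSMD3 (0.94), PSME3 (0.88), PSMD9 (0.75), PSMA7 (0.55), PSMD2 (0.52), POMP (0.47), PSMB7 (0.39), PSMB4 (0.38) and PSMD4 (0.33). The median of all genes was 0.12 there, and after median centring PSMA7, PSMB4, PSMB7, PSMD4 and POMP did not pass (adjusted p = 0.0983 to 0.374). Dimmer probe sets went the other way for POMP, at 0.47 at 48 h and 0.67 at 12 h, and for PSMB4, at -0.02 and 0.01.

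With Di, 48 h against 12 h, they were PSME4 (1.86), PSMD3 (0.82), PSMB9 (0.64), POMP (0.48), PSMD2 (0.47), PSMA4 (0.45), PSMB7 (0.41), PSMA5 (0.37), PSMB1 (0.35) and PSMD5 (-0.33). The PSME4 term was the largest of the 35 (adjusted p = 1.61e-10): its 3 Di arrays lay below vehicle at 12 h and above it at 48 h. A PSME4 probe set nearly as bright stood at 0.55 at 48 h and 0.12 at 12 h. After centring PSMA4, PSMA5, PSMB1, PSMB7, PSMD5 and POMP did not pass (adjusted p = 0.05 to 0.102). A dimmer probe set of PSMA5 moved the other way, and the mean of its probe sets gave -0.92.

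With low Kbr, 48 h against 24 h, they were PSME4 (0.69), PSMD14 (0.45) and PSMD2 (0.42). All 3 passed with the replicate number as a block, and PSMD2 and PSMD14 did not pass after centring (adjusted p = 0.0882 and 0.142). The nearly equally bright probe set of PSME4 stood at 0.81 at 48 h and 0.71 at 24 h.

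With high Kbr, 48 h against 24 h, they were PSMB9 (-1.04), PSMD12 (0.83), PSMB10 (-0.65), PSMB8 (-0.64), PSME4 (0.60), PSMC4 (0.59), PSMD14 (0.52), PSMD2 (0.45), PSMA7 (0.43), PSMB2 (0.39) and PSMD6 (0.39). All 11 passed with the replicate number as a block (adjusted p = 3.18e-05 to 0.0116). After centring PSMA7, PSMB2 and PSMD6 did not pass (adjusted p = 0.105, 0.118 and 0.0963). Other probe sets went the other way for PSMD12 (0.92 at 48 h and 1.15 at 24 h), for PSME4 with the nearly equally bright one (0.47 and 0.87), and for PSMB2 with 1 of its 2 others (1.06 and 1.09). The 3 immunoproteasome genes were the members that differed downward with high Kbr, a share of 8.11% of members against 8.10% of all genes.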

How the results depend on the processing

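Of the 276 calls of a member in a comparison, 276 kept their direction and their side of the threshold with a filter at 6, with an intensity trend and with the replicate block, 261 with no filter, 247 with quantile normalization, 221 with median centring and 197 with the groups compared alone. None of the settings but the mean of probe sets turned a direction. With that mean, PSMA5 stood at -0.043 for CdCl 48 h, -0.76 for Di 48 h, -0.51 for high Kbr 48 h, -0.92 for the change of the Di effect and 0.47 for the CdCl minus the high Kbr effect. PSMB2 stood at -0.060 and PSMC2 at -0.26 for Di 48 h, PSMC2 at -0.11 for high Kbr 48 h, and PSME4 at 0.32 for vehicle of CdCl and Di over time. The cause was not tested.

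Counts of members moved as follows, given here without the shares of all genes under each setting. With no filter, a filter at 6 or quantile normalization, Di 12 h had 1 rise. Quantile normalization gave 7 calls between doses at 48 h and 6 for the change of the high Kbr effect. Centring gave 7 rises and 3 falls for CdCl 12 h, 1 rise for Di 12 h, 1 fall for CdCl 48 h, 7 rises for low Kbr 24 h and 4 calls between CdCl and Di at 12 h. It gave 6, 4 and 1 calls for the change of the CdCl, Di and low Kbr effects, and 15 and 6 for the vehicles of CdCl and Di and of Kbr over time. The mean of probe sets gave 4 falls for CdCl 48 h, 3 for Di 48 h and 2 calls between doses at 24 h. The intensity trend gave 3 rises for Di 12 h. The replicate block, which has no basis in the CdCl and Di set, gave there 6 rises for CdCl 12 h, 13 rises and 2 falls for Di 12 h, 18 calls between CdCl and Di at 12 h and 17 for the change of the CdCl effect. In the paired Kbr set the block gave 4 calls between doses at 24 h and 9 for the change of the low Kbr effect, and the members it added in each Kbr comparison are named with that comparison or with their role.

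The groups compared alone gave 5 rises for CdCl 12 h, 1 fall for CdCl 48 h, 0 rises and 0 falls for low Kbr 24 h, 17 rises for low Kbr 48 h and 2 calls between doses at 48 h. They gave 0 and 2 calls for the change of the low and high Kbr effects and 0 for the vehicle of Kbr. The own set alone gave 5 rises for CdCl 12 h, 11 rises and 2 falls for Di 12 h, 1 fall for CdCl 48 h, 18 calls between CdCl and Di at 12 h, 5 rises for low Kbr 24 h and 5 calls between doses at 48 h. It gave 0 and 4 calls for the change of the low and high Kbr effects and 3 for the vehicle of Kbr.

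Leaving out 1 array at a time gave 2 to 3 rises and 6 to 7 falls for CdCl 12 h, 0 to 2 rises and 0 falls for Di 12 h, 16 to 17 rises and 1 to 2 falls for CdCl 48 h, and 17 to 18 rises and 1 fall for Di 48 h. It gave 4 to 19 rises and 1 fall for low Kbr 24 h, 17 to 26 and 2 to 3 for high Kbr 24 h, 24 to 31 and 3 to 4 for low Kbr 48 h, and 28 to 31 and 4 for high Kbr 48 h. Calls numbered 0 between doses at 24 h and 4 to 11 at 48 h, 7 to 10 between CdCl and Di at 12 h and 11 to 12 at 48 h, and 17 to 25 and 17 to 22 for CdCl and Di against high Kbr. For the change of effect they numbered 8 to 12 with CdCl, 8 to 10 with Di, 0 to 3 with low Kbr and 6 to 12 with high Kbr. For the vehicles over time they numbered 20 to 24 in the CdCl and Di set and 1 to 19 in the Kbr set.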
